A study of Mus musculus with 16 samples.

Results

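Interleukin 10 (IL-10) restrains activated macrophages, and 7 genes of its production and reception are described here: the cytokine gene Il10, its receptor chains Il10ra and Il10rb, the transcription factors Maf, Prdm1 and Bhlhe40, and Sphk1, which encodes sphingosine kinase 1. They were chosen by gene symbol among the 47069 genes of the count table, and all 7 were abundant enough to be tested. The cells were bone marrow-derived macrophages (BMMs) from C57BL/6 mice aged 8 to 10 weeks, grown with L929-conditioned medium. All cells were primed with interferon gamma (IFNγ, 10 ng/mL) and activated with Salmonella lipopolysaccharide (LPS, 100 ng/mL) together with immune complexes (ICs) of ovalbumin and rabbit IgG, and RNA was taken from cells activated for 1 hr. The DMSO group received the vehicle (0.01%), and the GSI group received the gamma-secretase inhibitor DAPT (25 μM), each with 2 replicates, so the single comparison asks how the genes differ when gamma-secretase, the protease that releases the active part of Notch receptors, is blocked. Gamma-secretase also cuts many other membrane proteins, and no unstimulated cells, LPS-only cells or second inhibitor were part of these data. Nothing in the labels says that the replicates came from separate mice or cultures, so the tests measure the spread between these samples, which may be technical.

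IL-10 is secreted by macrophages after Toll-like receptor signals, and more so when immune complexes engage Fc gamma receptors at the same time. It binds IL10RA, the chain that recognises the cytokine, which then pairs with IL10RB, a chain shared with other cytokines of the family. The associated kinases JAK1 and TYK2 activate STAT3, and STAT3 drives genes that dampen inflammatory cytokine production. MAF binds the Il10 gene and promotes its transcription in macrophages and T cells, BLIMP-1 (the product of Prdm1) takes part in Il10 control in T cells, and BHLHE40 is a repressor of Il10 in T cells and myeloid cells. Sphingosine kinase 1 makes sphingosine 1-phosphate, and its transcript is a marker of macrophages activated by LPS with immune complexes.

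The Il10 gene lies on the plus strand of chromosome 1, from 131019845 to 131024974 (GRCm38), and its GENCODE M21 transcript has 1310 bases in 5 exons, of which 537 encode a protein of 178 residues. The last exon carries AU-rich elements, the sites at which proteins such as ZFP36 shorten the life of cytokine mRNAs. The core TATTTAT occurred 4 times in the 706 bases after the stop codon. These sites are shown, with the core in capitals, because Il10 mRNA level depends on decay as well as on transcription. They start 128, 161, 224 and 570 bases after the stop codon, in exon 5, and are written 5′ to 3′ as DNA at chr1:131024385-131024413, chr1:131024418-131024446, chr1:131024481-131024509 and chr1:131024827-131024855.
Il10 site 1: tctctccgaaaTATTTATtacctctgata
Il10 site 2: agttcccattcTATTTATtcactgagctt
Il10 site 3: taattttacagTATTTATtatttttaacc
Il10 site 4: ggccagtttgtTATTTATaaccacctaaa

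The primers with which the study measured Il10 mRNA by qPCR locate that assay on the same transcript. The forward primer, printed because it crosses an exon junction, covers the last base of exon 1 and continues into exon 2 (chr1:131020076-131020994, an interval that includes the intron), and its capitals mark the bases in exon 2. The reverse primer lies after the stop codon in exon 5 (chr1:131024286-131024316). Their product spans 421 bases of the mRNA and ends before the first AU-rich site. The read counts reported here cover the exons of the whole gene.
Il10 forward: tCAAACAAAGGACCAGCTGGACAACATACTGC

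**Figure D1:**
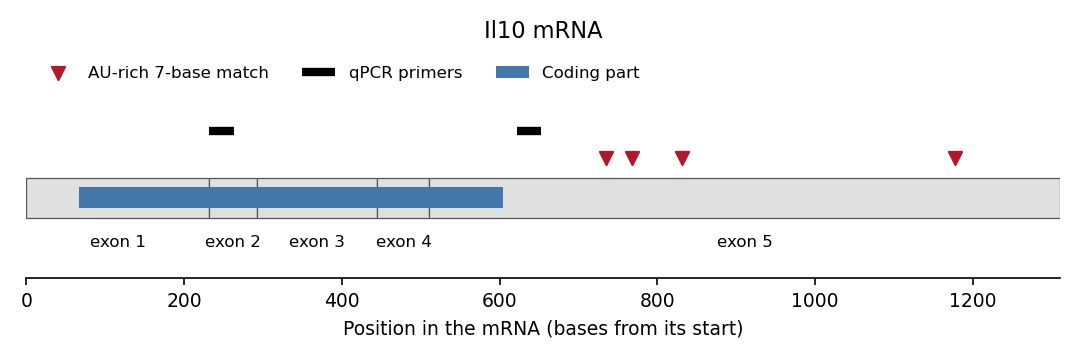
The Il10 mRNA drawn to scale in bases from its start, with its 5 exons in grey, the coding part in blue, the qPCR primers as black bars and the 4 matches to the AU-rich core as red triangles. All 4 matches lie in exon 5 after the coding part.

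Total counts ranged from 42694655 to 56932059 reads per library. The label of the cells was checked on cell type markers: all 10 macrophage markers checked were present, led by Lyz2, Csf1r and Cd14, and their summed level was 12663 and 12879 CPM (counts-per-million units, on library sizes scaled by the TMM method) with DMSO and 9739 and 10670 CPM with GSI. Of these markers 8 were lower and 1, Mertk, was higher with GSI at a false discovery rate (FDR) under 0.05 from edgeR's quasi-likelihood test, where 21.9% of the 13211 genes tested were lower and 19% higher, and 6 of the 8 lower calls held in all 4 fits that left out a library. The summed levels of the neutrophil, B cell, T and NK cell, mast cell, stromal and erythroid lists were at or below 1.85 CPM in every library. The number of markers with 0 counts throughout was 2 of 9, 1 of 7, 2 of 7, 5 of 6, 1 of 6 and 4 of 6 in these lists, in that order, among them Elane, Ebf1, Cd3g, Cpa3 and Col3a1. In these lists 2 markers were called. The stromal list's endothelial marker Pecam1 was lower at -1.01 from 34 to 97 counts per library. The mast cell list's Kit was higher at 0.83 from 21 to 54 counts. Kit lost its call without DMSO replicate 1 (0.68) or GSI replicate 1 (0.64). The dendritic cell list summed to 186 and 179 CPM with DMSO and 113 and 115 CPM with GSI, nearly all of it Clec9a, while Siglech and Cd209a had 0 counts. The part of these marker shifts in the changes below was not tested, and in bulk RNA fewer cells of a type and less RNA per cell cannot be told apart. The Notch targets Hes1 and Hey1 had at most 5 counts per library and were too low to test, so these counts give no check of the inhibitor's effect on Notch.

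With GSI, 6 of the 7 genes were lower and none was higher at an FDR under 0.05, against 21.9% lower and 19% higher of all genes tested. Il10 changed most, to 28.6% of its level with DMSO, followed by Sphk1 at 50.4%, Bhlhe40 at 62.3%, Prdm1 at 66.7%, Il10ra at 76.7% and Maf at 77.1%. Il10rb was not called. Il10 alone was also past the study's second threshold, a log2 fold change beyond 1.5 in size, which 2.17% of all genes passed in the lower direction. In each of the 6 genes both GSI libraries lay below both DMSO libraries, as they did for 34.8% of all genes tested. The median log2 fold change of the 7 genes was -0.58, against 0.01 over all genes tested.

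**Figure D2:**
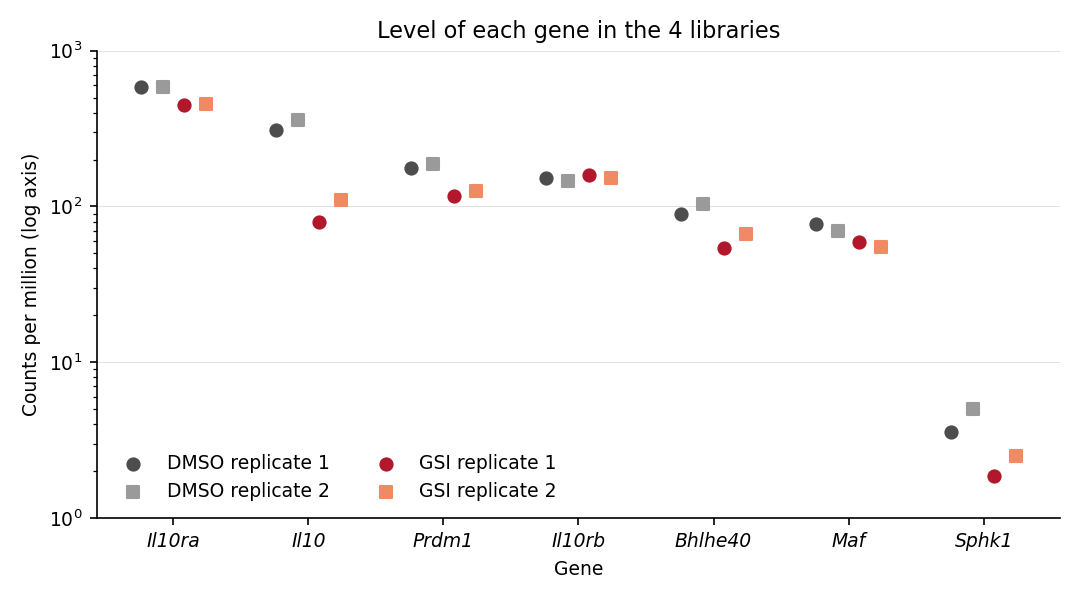
Level of each of the 7 genes in the 4 libraries, in CPM on a log axis, with DMSO libraries in grey and GSI libraries in red and orange (circles, replicate 1; squares, replicate 2). For 6 genes both GSI libraries lie below both DMSO libraries, with the widest gap at Il10, while the Il10rb points of the groups lie close together.

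Il10 stood at 309 and 357 CPM in the DMSO libraries and at 79.6 and 110 CPM in the GSI libraries, a mean of 333 ± 33.7 against 95.0 ± 21.8 CPM (SD, n = 2 each). The highest GSI library was thus far below the lowest DMSO library, although replicate 2 was 1.15 times replicate 1 with DMSO and 1.39 times with GSI. The log2 fold change was -1.81 (standard error (SE) 0.109, FDR = 1.11e-10), a 3.50-fold decrease. Among the 1945 genes with a mean of at least 100 CPM, no other gene had a lower log2 fold change. Over all genes tested, whatever their level, Il10 ranked 205 from the lowest. The 4 repeat columns of each library lay close together, with 307 to 321, 350 to 363, 76.6 to 83.6 and 109 to 111 CPM across those of DMSO replicate 1, DMSO replicate 2, GSI replicate 1 and GSI replicate 2.

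**Figure D3:**
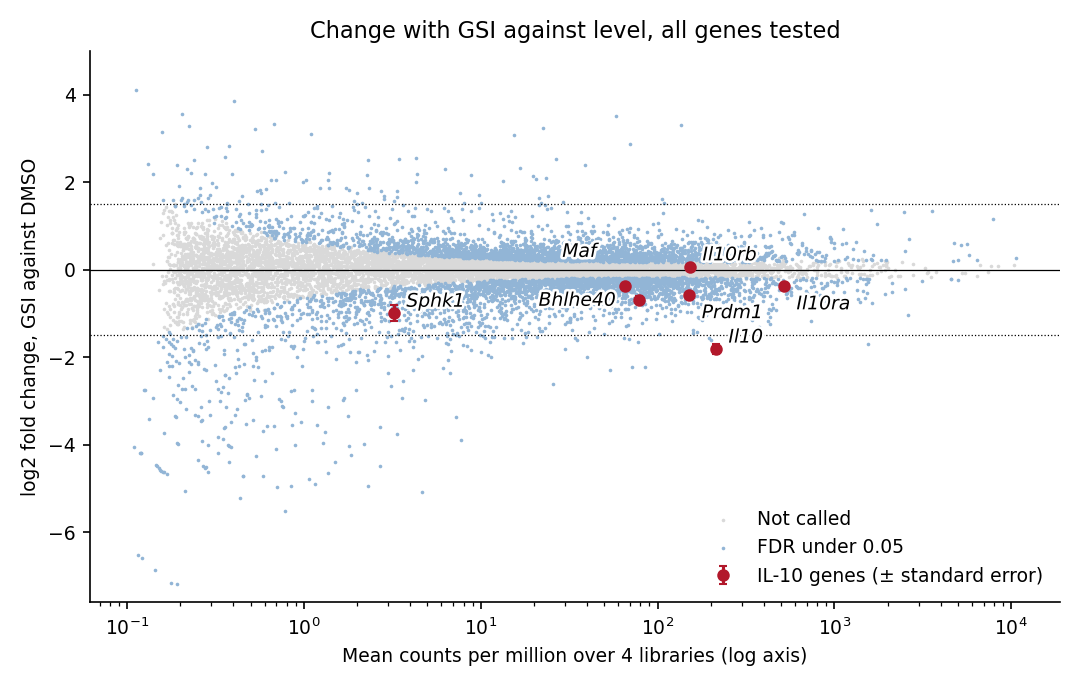
Log2 fold change of GSI against DMSO for each of the 13211 genes tested, against its mean level in CPM (log axis), with genes at an FDR under 0.05 in blue and the 7 genes in red with their standard errors. Dotted lines mark the log2 thresholds of 1.5, and Il10 is the gene of the 7 that lies beyond them.

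Per length, Il10 was also the most abundant of the 7 transcripts with DMSO. Divided by the length of its exons, its level was 236 and 272 CPM per kilobase (kb) with DMSO and 60.8 and 84.3 CPM per kb with GSI. With DMSO 98.5% of the genes tested had a lower level per length. Relative to the transcript of its own receptor chain Il10ra, its level per length was 1.41 and 1.62 times as high with vehicle and 0.476 and 0.650 times as high under GSI, so that Il10 was the more abundant of the pair in the DMSO libraries only. Il12b, which encodes the IL-12 p40 chain that immune complexes are known to lower as they raise IL-10, was itself lower with GSI at a log2 fold change of -0.97 (SE 0.087). The ratio of Il10 to Il12b per length was 18.97 and 23.1 in the DMSO libraries, against 9.62 and 13.9 after GSI. The balance between the transcripts therefore moved away from Il10, with groups that did not overlap, but Il10 remained the more abundant transcript in every library. The other IL-10 family cytokines gave no measurable transcript: Il19 and Il20 had at most 2 counts per library, and Il22, Il24, Iltifb, Ifnl2 and Ifnl3 had 0 counts in all 4 libraries, where a count of 0 allows a level of up to 0.0527 to 0.0703 CPM (3 counts per library, counting error only).

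Of the receptor chains, Il10ra was lower with GSI and Il10rb was not called, a difference between the chains that was not tested. Il10ra (chromosome 9, 45253837 to 45269149, minus strand) had 587 CPM in each DMSO library and 447 and 454 CPM in the GSI libraries, the tightest replicates of the 7 genes. Its log2 fold change was -0.38 (SE 0.071, FDR = 0.000201). Il10rb (chromosome 16, 91406164 to 91425834, plus strand) had 152 and 146 CPM with DMSO and 159 and 153 CPM with GSI, a log2 fold change of 0.07 (SE 0.069, FDR = 0.443). The GSI libraries lay just above the DMSO libraries, by about 1 SE.

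Per length, the ligand-binding chain was the more abundant of the pair in every library. Il10ra stood at 168 CPM per kb in each DMSO library and at 128 and 130 CPM per kb with GSI, whereas Il10rb stood at 39.9 and 38.2 CPM per kb with DMSO and 41.8 and 40.2 with GSI. The ratio of Il10ra to Il10rb was 4.20 and 4.39 in the DMSO libraries, against 3.05 and 3.23 after GSI. Il10rb shares 569 exon bases on the same strand with the gene model Gm21970, and reads in the shared bases cannot be assigned from the counts. Gm21970 had 0 counts in all 4 libraries.

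Other class 2 cytokine receptor chains, the family to which both IL-10 receptor chains belong, were lower in 4 of 6 tested (66.7%) and higher in none, against 21.9% and 19% of all genes tested, with a median log2 fold change of -0.29. Ifngr1, the ligand-binding chain for IFNγ, had 202 and 189 CPM with DMSO and 124 and 131 CPM with GSI (log2 fold change -0.62, SE 0.071). F3, the coagulation receptor tissue factor, had a log2 fold change of -0.50, and Ifnar1 and Ifnar2, the type I interferon receptor chains, had -0.36 and -0.22. The Ifnar2 call was lost without DMSO replicate 1 (-0.22) and without DMSO replicate 2 (-0.23). Ifngr2, the signalling chain for IFNγ, stood at 157 and 154 CPM with DMSO and 162 and 148 CPM with GSI and was not called. Il20ra and Il22ra1 had 0 counts in every library. Ifnar1, Ifnar2 and Ifngr2 also lie beside Il10rb on chromosome 16; of the 10 genes listed for that stretch 6 were lower and 1 was higher (60% and 10%, against the same background), with Itsn1 at -0.57, Tmem50b at -0.51 and Cryzl1 at 0.55. Of these 6 lower calls 3 held in all 4 fits that left out a library: besides Ifnar2, Donson lost its call without DMSO replicate 1 (-0.25) or GSI replicate 1 (-0.27) and Son without DMSO replicate 2 (-0.24).

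**Figure D4:**
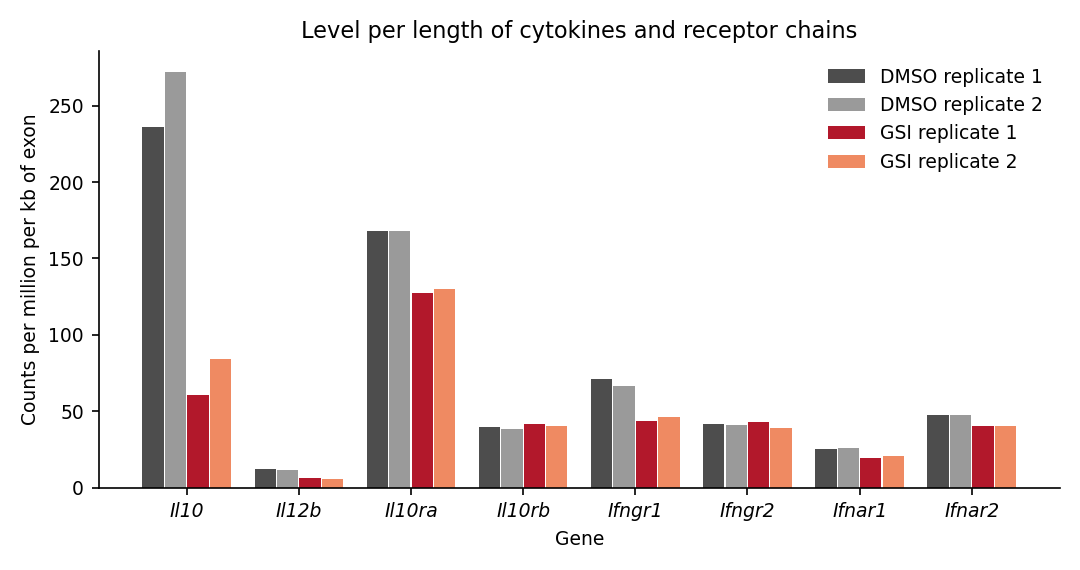
Level per length, in CPM per kb of exon, of Il10, Il12b and the receptor chains for IL-10, IFNγ and type I interferon, with 1 bar per library (DMSO in grey, GSI in red and orange). Il10 drops from 236 and 272 to 60.8 and 84.3 CPM per kb, Il10ra drops from 168 to 128 and 130, and Il10rb lies between 38.2 and 41.8 CPM per kb in all libraries.

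Maf (chromosome 8, 115682942 to 115707794, minus strand) had 77.7 and 69.7 CPM with DMSO and 58.7 and 54.9 CPM with GSI. Its log2 fold change was -0.37 (SE 0.076, FDR = 0.000531). This change was the smallest of the 6 genes called, within its standard error of that of Il10ra, and the lowest DMSO library was above the highest GSI library. Mafg, a small Maf protein that lacks an activation domain, was higher at a log2 fold change of 0.53.

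Prdm1 (chromosome 10, 44437177 to 44528501, minus strand) had 176 and 186 CPM with DMSO and 116 and 126 CPM with GSI. The log2 fold change was -0.58 (SE 0.072, FDR = 1.66e-06), and the gap between the groups was several times the difference within either. Among the other PR-domain genes tested, Prdm10 and Prdm2 were lower, at -0.80 and -0.45. Prdm4, Prdm9 and Prdm15 were not called, with log2 fold changes of 0.13, -0.18 and 0.09.

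Bhlhe40 (chromosome 6, 108660629 to 108666925, plus strand) had 89.3 and 103 CPM with DMSO and 54.0 and 66.1 CPM with GSI. This gene, a repressor of Il10, was lower together with Il10, at a log2 fold change of -0.68 (SE 0.090, FDR = 4.14e-06). As for Il10, replicate 2 was above replicate 1 in both groups. Its paralogue Bhlhe41, which binds the same E-box sequence, moved the opposite way: it had 8.09 and 8.85 CPM with DMSO and 15.7 and 15.01 CPM with GSI, a log2 fold change of 0.86 (SE 0.098). Per length, Bhlhe40 exceeded Bhlhe41 by 15.8 and 16.6 times in the DMSO libraries and by 4.90 and 6.29 times in the GSI libraries. Bhlhe40 thus remained the more abundant of the pair in every library. Over the 17 tested paralogues and partners of Maf, Prdm1 and Bhlhe40, 7 were lower and 2, Mafg and Bhlhe41, were higher, 41.2% and 11.8% against 21.9% and 19% of all genes tested, with a median log2 fold change of -0.18. Of the 7 lower calls 5 held in all 4 fits that left out a library, while Arntl lost its call without DMSO replicate 1 (-0.35) or GSI replicate 1 (-0.32) and Clock without DMSO replicate 1 (-0.19). Among the partners, Bach1, a heme-regulated repressor that pairs with small Maf proteins, had -0.51.

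Sphk1 (chromosome 11, 116530925 to 116536674, plus strand) was the least abundant of the 7 genes, with 153 and 284 counts in the DMSO libraries and 90 and 123 counts in the GSI libraries. These correspond to 3.56 and 5.01 CPM with DMSO and 1.86 and 2.49 CPM with GSI. The log2 fold change of -0.99 had the widest standard error of the 7 genes, 0.181 (FDR = 0.000182). The groups did not overlap, but replicate 2 was 1.41 times replicate 1 with DMSO and 1.34 times with GSI. Sphk2, the second sphingosine kinase, was far more abundant and higher with GSI, at 57.1 and 65.2 CPM with DMSO and 71.6 and 76.6 CPM with GSI (log2 fold change 0.27, SE 0.078). Without DMSO replicate 1 the call for Sphk2 was lost, at 0.18. The ratio of Sphk1 to Sphk2 per length was 0.0542 and 0.0668 in the DMSO libraries, against 0.0227 and 0.0283 after GSI.

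Genes that make, break down, export or sense sphingosine 1-phosphate counted 8 lower and 4 higher of 19 tested, 42.1% and 21.1% against 21.9% and 19% of all genes tested, with a median log2 fold change of -0.20. Abcg1, a lipid exporter, had 234 and 232 CPM with DMSO and 150 in each library with GSI (log2 fold change -0.64, SE 0.068). The phosphatase gene Sgpp1 had -0.51. Higher were Plpp3, a phosphatase of lipid phosphates, at 0.88, the receptor gene S1pr2 at 0.54, Cib1, which carries sphingosine kinase 1 to the membrane, at 0.28, and Sphk2. Of the 8 lower and 4 higher calls, 4 and 2 held in all 4 fits that left out a library. Among the lower ones, Asah1 lost its call without DMSO replicate 1 (-0.14) or GSI replicate 1 (-0.18), Asah2 without DMSO replicate 1 (-0.11) or GSI replicate 2 (-0.20), S1pr1 without DMSO replicate 2 (-0.41) or GSI replicate 2 (-0.35) and Spns2 without GSI replicate 1 (-1.55). Cib1 lost its call without GSI replicate 2 (0.23).

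Exons of Maf, Bhlhe40 and Sphk1 overlap antisense genes, by 440, 118 and 192 bases. The antisense genes Gm15655, 0610040F04Rik and Gm29292 had at most 7 counts per library, while the 3 genes had at least 90 counts in every library. Il10, Il10ra and Prdm1 share no exon bases with any annotated gene.

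RefSeq promoter windows (GRCm38.p6, 250 bases before to 50 bases after a transcription start) were held for Prdm1 and for 5 start sites of Sphk1. The Prdm1 window up to the start site is shown because this gene was lower with GSI and the window holds a match to the core of RBPJ, the DNA-binding partner of Notch. It lies at chr10:44458749-44458998 and reads on the minus strand, with motif matches in capitals.
Prdm1 promoter: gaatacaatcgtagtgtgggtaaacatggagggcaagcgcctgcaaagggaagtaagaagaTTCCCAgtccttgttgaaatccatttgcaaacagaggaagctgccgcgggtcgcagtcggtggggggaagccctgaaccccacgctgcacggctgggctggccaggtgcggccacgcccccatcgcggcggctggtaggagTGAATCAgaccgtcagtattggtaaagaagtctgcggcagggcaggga

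The first match in capitals is the RBPJ core TGGGAA, on the opposite strand of the one shown, with its first printed base 189 bases before the start site. The second is an AP-1 motif, TGANTCA, 48 bases before it. In windows of this length, 25.6% of 32851 held the RBPJ core and 7.81% the AP-1 motif on either strand. No match was found in the Prdm1 window to the κB consensus (in 4.51% of windows), the cyclic AMP response element TGACGTCA (1.79%), the STAT motif TTCNNNGAA (8.3%), the E-box CACGTG (7.15%), the MAF core TGCTGA (19.5%) or the GC box GGGCGG (35.7%). For Sphk1 a stretch shared by 2 of the 5 windows is shown, at chr11:116531781-116531809 on the plus strand, because an AP-1 and a STAT motif, in capitals, stand 2 bases apart there.
Sphk1 stretch: tgtcgcTGAGTCAccTTCTCGGAAggcac

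The window that starts at 116531587 also held the RBPJ core, 214 bases before its start site, the window that starts at 116531661 held a κB match, and the pair that starts at 116532194 and 116532201 shared an E-box. The remaining window held none of the 8 motifs. These matches are a description of the letters and not of binding in these cells.

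Other transcription factors with a known part in Il10 control counted 14 lower and 3 higher of 32 tested, 43.8% and 9.38% against 21.9% and 19% of all genes tested, and a median log2 fold change of -0.18. Irf4 had the largest change, from 31.3 and 31.1 CPM with DMSO to 10.1 and 11.3 CPM with GSI (log2 fold change -1.54, SE 0.088). It was also past the fold threshold in the main fit. In fits that left out a library, its log2 fold change ranged from -1.62 to -1.47. Irf4 is induced by LPS and restrains Toll-like receptor signalling. Nr4a1, an orphan nuclear receptor of the immediate early response, went from 538 and 485 CPM to 184 and 187 CPM (-1.46, SE 0.075). Of the NF-κB subunits, Rel went from 489 and 487 CPM to 286 and 305 CPM (-0.72, SE 0.071), Nfkb1, which encodes p50 and its precursor, had -0.44, and Rela stood at 228 and 220 CPM with DMSO and 224 and 221 CPM with GSI and was not called. Higher were Batf at 0.66, Cebpd at 0.47 and Jund at 0.27, of which Cebpd lost its call without DMSO replicate 2 (0.37) or GSI replicate 1 (0.30), and Jund without DMSO replicate 1 (0.15) or GSI replicate 1 (0.16). Rbpj itself had 111 and 110 CPM with DMSO and 106 and 116 CPM with GSI and was not called. Of the 14 lower and 3 higher calls, 8 and 1 held in all 4 fits that left out a library.

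Kinases and phosphatases with a known part in Il10 control, raising or restraining it, were lower in 10 of 23 (43.5%) and higher in none. The shares over all genes tested were 21.9% and 19%, and the median log2 fold change of the list was -0.15. Of the 10 calls 8 held in all 4 fits that left out a library. Gsk3b lost its call without DMSO replicate 1 (-0.17) or GSI replicate 2 (-0.14), and Btk without either DMSO library (-0.18 and -0.23) or GSI replicate 2 (-0.17). The phosphatases led this group. Dusp2 went from 302 and 282 CPM with DMSO to 105 and 92.4 CPM with GSI (log2 fold change -1.57, SE 0.077). Dusp1, which switches off p38 and is induced by LPS, went from 1682 and 1796 CPM to 1053 and 1047 CPM (-0.73, SE 0.074). Rps6ka5, the kinase MSK1 that acts downstream of p38 and ERK on the Il10 promoter, had -0.72, and its relative Rps6ka4 (MSK2) was not called at 0.11. Of the MAP kinases, Mapk14 (p38 alpha) had -0.26, whereas Mapk3, which encodes an ERK, was not called at -0.05. Map3k8, the kinase TPL-2 that ERK activation by LPS requires, was not called at 0.06. The phosphoinositide 3-kinase genes Pik3cg and Pik3cd had -0.63 and -0.33.

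Il10 mRNA is also set by its turnover, and of 10 genes listed for it 4 (40%) were lower and none was higher, against 21.9% and 19% of all genes tested. Zfp36l1, which encodes a protein that binds AU-rich elements, went from 244 and 224 CPM with DMSO to 87.0 and 83.4 CPM with GSI (log2 fold change -1.46, SE 0.073). Zfp36, the gene of tristetraprolin, which targets Il10 mRNA, was abundant and not called, at 5138 and 5655 CPM with DMSO and 5461 and 4824 CPM with GSI. The endonuclease gene Zc3h12a had -0.43 and the deadenylase scaffold gene Cnot1 had -0.40. Zfp36l2 was called at -0.18, a call that was lost without DMSO replicate 2 (-0.11), GSI replicate 1 (-0.20) or GSI replicate 2 (-0.17).

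The AU-rich core shown above for Il10 was uneven across the 7 genes. Il10 and Prdm1 had 4 sites each and Il10ra had 3, in 706, 2490 and 1693 bases after the stop codon, while Il10rb, Maf, Bhlhe40 and Sphk1 had none in any complete coding transcript. Of 11625 tested genes with such a transcript, 26.9% had at least 1 site, 3.34% at least 3 and 1.2% at least 4. Per kb Il10 had 5.67 sites, Il10ra 1.77 and Prdm1 1.61. The median log2 fold change was 0.04 over genes with no site and -0.12 over the 388 genes with 3 or more, a description across genes, which are not independent replicates.

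Downstream of the receptor, 7 of 12 signalling genes were lower and 1 was higher, 58.3% and 8.33% against 21.9% and 19% of all genes tested, with a median log2 fold change of -0.21. Cish, a feedback inhibitor of cytokine receptors, went from 43.7 and 47.0 CPM with DMSO to 20.3 and 23.6 CPM with GSI (log2 fold change -1.05, SE 0.085), and Stat5a had -0.92. Jak2 had -0.52. The kinases of the IL-10 receptor itself moved little. Jak1 was called at -0.20, a call lost without either DMSO library (-0.18 and -0.22) or GSI replicate 1 (-0.18). Tyk2 was not called at -0.06. Stat3, the main effector, went from 461 and 465 CPM to 386 and 413 CPM (-0.21, SE 0.071), and its call was lost without either DMSO library (-0.22 and -0.21) and without GSI replicate 1 (-0.16). Socs3, the STAT3 target by which IL-10 signalling is often read, had 1567 and 1634 CPM with DMSO and 1608 and 1571 CPM with GSI, groups that overlapped. Socs1 was the gene that was higher, at 0.46. Of the 7 lower calls 3 held in all 4 fits that left out a library. These were the calls of Cish, Stat5a and Jak2, which lie outside the JAK1, TYK2 and STAT3 route.

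**Figure D5:**
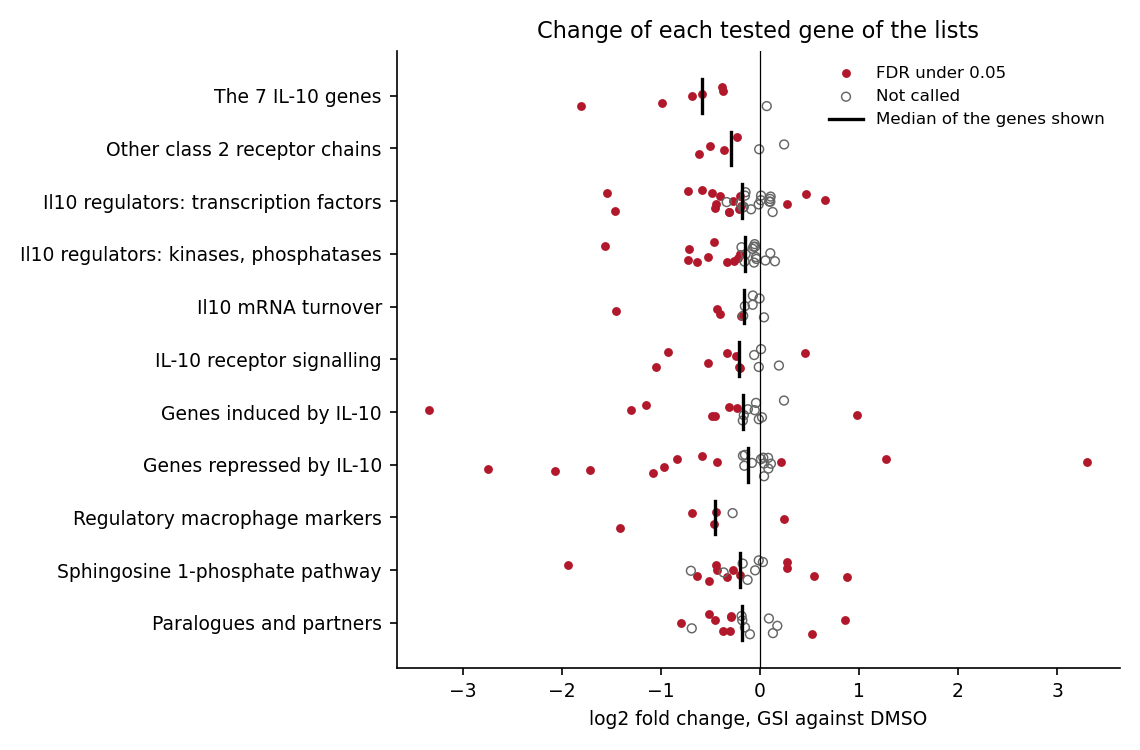
Log2 fold change of GSI against DMSO for every tested gene of 11 lists around Il10, with genes at an FDR under 0.05 filled in red, genes not called as open circles and the median of each list as a black bar. The medians of all lists lie below 0, and the widest spread is among the genes that IL-10 represses, from -2.75 to 3.30.

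Genes that IL-10 is known to induce were lower in 7 and higher in 1 of 16 tested, 43.8% and 6.25% against 21.9% and 19% of all genes tested, with a median log2 fold change of -0.17. Of the 7 lower calls 5 held in all 4 fits that left out a library, while Etv3 lost its call without DMSO replicate 2 (-0.23) and Tnfrsf1b without DMSO replicate 2 (-0.16) or GSI replicate 1 (-0.18). Mrc1, the mannose receptor, went from 16.1 and 15.3 CPM with DMSO to 6.16 and 6.64 CPM with GSI (log2 fold change -1.29, SE 0.101). Hmox1, heme oxygenase 1, moved the other way, from 119 and 139 CPM to 265 and 244 CPM (0.98, SE 0.080). Il1rn, the IL-1 receptor antagonist, was not called at -0.12. Cd163, the hemoglobin scavenger receptor, was called lower from very few reads. It had 0.418 and 0.264 CPM with DMSO and 0.0414 and 0.0202 CPM with GSI. Whether changes in this list, or among the genes that IL-10 represses, follow from IL-10 was not tested. Activation lasted 1 hr, and no group had IL-10 added or blocked.

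Of 22 tested genes that IL-10 is known to repress, 8 were lower and 3 higher, 36.4% and 13.6% against 21.9% and 19% of all genes tested, with a median log2 fold change of -0.11. Il1b went from 2491 and 2229 CPM with DMSO to 758 and 686 CPM with GSI (log2 fold change -1.71, SE 0.082). Csf2, the gene of GM-CSF, went from 4.28 and 3.19 CPM to 1.18 and 0.587 CPM (-2.07, SE 0.238). Nos2, the inducible nitric oxide synthase, was the gene with the largest increase of the lists, from 23.8 and 25.9 CPM to 250.3 and 240.5 CPM (3.30, SE 0.079), and Ccl5 was higher at 1.27. Cxcl10 was the third that was higher, at 0.21, and lost its call without either DMSO library (0.21 and 0.22). Of the 8 lower calls 6 held in all 4 such fits, while Csf3 (-2.35) and Il23a (-0.27) lost theirs without GSI replicate 2. Tnf had 7315 and 7691 CPM with DMSO and 8124 and 7783 CPM with GSI, and was not called. Il6, with 34.9 and 27.7 CPM with DMSO and 34.6 and 29.7 CPM with GSI, was not called either.

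Sphk1 is 1 of several transcripts used to recognise macrophages activated in the presence of immune complexes. Of 7 other such markers listed, 1 had 0 counts in all 4 libraries. Of the 6 tested, 4 were lower and 1 was higher, 66.7% and 16.7% against 21.9% and 19% of all genes tested. Tnfsf14, the gene of LIGHT, went from 9.81 and 13.4 CPM with DMSO to 4.70 and 4.07 CPM with GSI (log2 fold change -1.41, SE 0.138). Hbegf, a growth factor gene, had -0.69, Vegfa had -0.46 and Cxcr4 had -0.44, of which Cxcr4 lost its call without GSI replicate 2 (-0.26). Rgs1 was higher at 0.24 and lost its call without DMSO replicate 1 (0.21).

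Of the 7 tested neighbours of Il10 on chromosome 1, 2 were lower and 1 was higher, 28.6% and 14.3%, near the 21.9% and 19% of all genes tested. Their median log2 fold change was -0.07, with Rassf5 at -0.35, Srgap2 at -0.23 and Ikbke, which encodes a kinase of the interferon response, at 0.33. Srgap2 lost its call without DMSO replicate 1 or 2 (-0.23 each). Mapkapk2, the kinase MK2 whose gene lies next to Il10 and whose product stabilises cytokine mRNAs, had 552 and 558 CPM with DMSO and 524 and 546 CPM with GSI and was not called.

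The genes whose centred log2 CPM over the 4 libraries lay nearest to that of Il10, among 10956 genes with a mean of at least 1 CPM, were Cd207, Chst3, Sele, Ipcef1 and Dgkg, at Euclidean distances of 0.159 to 0.224. All 5 were far less abundant, with means of 2.02 to 8.81 CPM, than Il10. For Il10ra the nearest were Lpcat2, Lrmp, Tmem63a, Gem and Pou6f1, at 0.0135 to 0.0159. Those of Prdm1 were Frmd4b, Met, Phka2, Spag9 and Fam217b, those of Maf were Ttc3, Rock2, Ptpra, Zfp46 and Stk4, and those of Bhlhe40 began with Scn3b and Cyth1. Cd300lh and BC030867 were nearest to Sphk1, and Edrf1 and Psmd14 to Il10rb. No member was among the 5 nearest of another.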

How the data were processed

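Reads of strand-specific poly(A) libraries were, per the study's methods and the submitters' processing notes, aligned with STAR 2.5.0a and counted per gene with HTSeq. The methods name mm10 and the notes name mm9 and mm10, and the coordinates here are of GRCm38 (mm10). The authors deposited raw counts of 47069 genes in 16 columns, 4 per replicate. These agreed within sampling noise (chi-square per degree of freedom 1.01 to 1.03) and were summed to 4 libraries, so that repeat runs were not counted as replicates. DAPT was given overnight before activation per the methods. Low counts were removed with filterByExpr, and 13211 genes were fitted with edgeR 4.0.16 (TMM, quasi-likelihood F-test, GSI against DMSO, Benjamini-Hochberg over all genes; R 4.3.3). Standard errors are the log2 fold change divided by the square root of F. SDs over 2 libraries rest on a single difference. Levels per length used the merged exons of GENCODE M21, which held 98.95% of the genes. On simulated counts with 200 changed genes, 85.7% of those changed 2-fold were called. Smaller changes, such as those of Il10ra and Maf, were not simulated.

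The 7 genes, the lists and the tests were chosen with earlier results of these data known. Named were the 7 genes, the 3 list genes with the largest called change and a mean of at least 1 CPM, list genes past both thresholds, Hes1, Hey1 and the 5 nearest genes. Other list genes were named after their values were seen, as members of small counts or as partners of a named gene. Some genes that this rule names are not reported here. Alternatives covered normalization (RLE, upper quartile, none), DESeq2 1.42.0, 2 low-count filters, the replicate block, the 16 columns as samples and leaving out each library.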

Additional observations from a re-analysis of the deposited data

How the results depend on the processing

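Under the other normalizations, filters and tools and without any single library, Il10, Il10ra and Prdm1 stayed lower at an FDR under 0.05 in 14 of 14 alternatives each, and Maf, Bhlhe40 and Sphk1 in 13 of 13. Without 1 library the log2 fold change ranged from -2.06 to -1.59 for Il10, -1.21 to -0.71 for Sphk1, -0.83 to -0.54 for Bhlhe40, -0.64 to -0.53 for Prdm1, -0.45 to -0.30 for Maf and -0.39 to -0.37 for Il10ra. Such fits leave a group with 1 library, which is assumed to vary like the other group. Il10rb was called, at 0.0744 (FDR = 0.00989), only when the 16 columns were taken as separate samples, which treats repeat runs as replicates; that setting also called 3896 genes higher in place of 2504 and put 178 past both thresholds in place of 385. Requiring 10 counts in every library left 154 genes past both thresholds, and no filter gave 556. Upper quartile normalization turned the balance of calls, with 2592 genes lower and 2999 higher in place of 2888 and 2504. In a fit of the genes that share no exon bases with an antisense gene, which was chosen after seeing the data, there were 1908 lower, 1663 higher and 179 past both, and 3 of the 4 IL-10 genes left in were lower; fewer genes enter that fit. Same-numbered samples share only a number, with a correlation of deviations of 0.155 over 2 pairs. With the replicate block 3314 genes were lower and 3130 higher, and the same 6 IL-10 genes were lower, with Il10 at -1.82. A block with the numbers crossed, added after seeing the data, gave 2665 lower and 2225 higher, and the same 6 IL-10 genes were lower. Of the other list genes, 101 of 2579 alternative values lost a call and 87 gained one. A further 14 changed sign, by at least 1 SE, with no call in either fit, and none changed sign with a call. Depth limits Sphk1 most, at 90 to 284 counts.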
